A study of Bos taurus with 20 samples.

Results

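The genes of the mitochondrial ribosome were examined in maternal blood as 1 family. Of the 37063 genes listed in the counts, 78 have a cattle symbol made of MRPL or MRPS followed by a number, and 77 of these had at least 10 counts in at least 5 cows. They comprise 48 MRPL genes, named after the large subunit, and 29 MRPS genes, named after the small subunit. The exception was MRPL16, a protein of the large subunit, with 0 counts in each of the 20 cows. In the RefSeq gene table the span of MRPL16 overlaps that of STX3, and whether this bears on its count was not tested.

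Whole blood was drawn from 20 recipient cows at day 63 of gestation into tubes that lyse the cells and stabilize RNA, and 1 library per cow was sequenced. Each cow carried a female beef foetus sired with X-sorted semen, and according to the study's methods each pregnancy came from a single in vitro produced blastocyst, made from the oocyte of a beef donor and placed in a lactating dairy recipient. The paper's overview of its datasets instead gives the recipient breed as Angus, with ages that span several years. Neither breed nor age of the recipients was used here. The labels give no treatment and no second group, and calf birth weight (BW), 45.0 ± 10.1 kg (SD, n = 20), is the only variable they give for each cow. The parity of the dams, which the paper considers for calving, was not used here. Slopes on calf BW were fitted in 19 cows, 43.5 ± 7.97 kg (SD, n = 19), because the study set aside the recipient of the 72.5 kg calf before its test.

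Mitochondrial ribosomes translate the few proteins encoded in mitochondrial DNA, all of them subunits of the respiratory chain and the ATP synthase. Their RNAs come from mitochondrial DNA, whereas their proteins are encoded in the nucleus, made in the cytosol and imported. Some of these proteins have relatives in the bacterial ribosome and others are found only in mitochondria. The symbols do not always match the subunit: MRPS30 and MRPS18A sit in the large subunit, and MRPS36 is now regarded as a part of the 2-oxoglutarate dehydrogenase complex.

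Total counts per cow were between 24632077 and 39892111, and every library differed from each other one by more than counting error (chi-square per degree of freedom of at least 12.6). The library of the recipient of the 30 kg calf stood apart in the 13 protein genes of mitochondrial DNA, with a mean z-score of -2.78 where the next lowest had -0.55. Several of the results that include it are therefore also given without it. Marker genes fixed for blood cells were present, with 9 of 9 neutrophil genes and 9 of 9 T cell genes of the counts passing the filter. In such bulk samples, fewer cells of a type and less RNA per cell cannot be told apart. The labels and the paper name different library kits, and neither the strand setting nor the handling of reads that fit several genes is given in the sources used here. The spans of 23 of the 78 genes overlap another gene, and those of 13 overlap a gene that passed the filter. Among these 13 are MRPL51 with VAMP1, MRPS7 with MIF4GD, MRPS18C with ABRAXAS1 and MRPL30 with MITD1. MRPS6 overlaps SLC5A3, which did not pass the filter. The counts of members with an overlap are less certain, while MRPL53, MRPS15, MRPL37 and MRPL4 overlap no other gene.

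The family took a small and narrow share of the blood transcriptome. Its summed counts were 0.157% to 0.182% of the total in the 20 cows, with a median of 0.172%. Mean levels ran from 4.40 to 138 CPM, a read count scaled to the normalized library size, with a median of 16.1 CPM beside 13.9 CPM over the 16269 genes that passed the filter, and 43 of the 77 members lay above that value. In single cows the members had between 90 and 7025 counts. CPM depends on transcript length, which was not available here, so an order by CPM is an order of read shares and not of molecules.

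In this order MRPS15, a small subunit protein whose bacterial relative binds ribosomal RNA early in assembly, came first with 138 ± 33.3 CPM (SD, n = 20). MRPL51, a protein specific to mitochondria, had 80.7 ± 7.53 CPM (SD, n = 20), and MRPS5, the counterpart of a bacterial small subunit protein, had 71.3 ± 4.67 CPM (SD, n = 20). These neighbours did not all separate, because the lowest MRPS15 value of 96.6 CPM lay above the highest MRPL51 value of 91.5 CPM, whereas the ranges of MRPL51 (from 59.3 CPM) and MRPS5 (62.8 to 78.2 CPM) overlapped. At the other end were MRPS24 with 4.40 ± 0.71 CPM, MRPL30 with 4.87 ± 0.69 CPM and MRPS12, which belongs to the decoding centre, with 4.98 ± 0.65 CPM (SD, n = 20 for each). The lowest levels thus differed by less than their spread between cows.

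**Figure D1:**
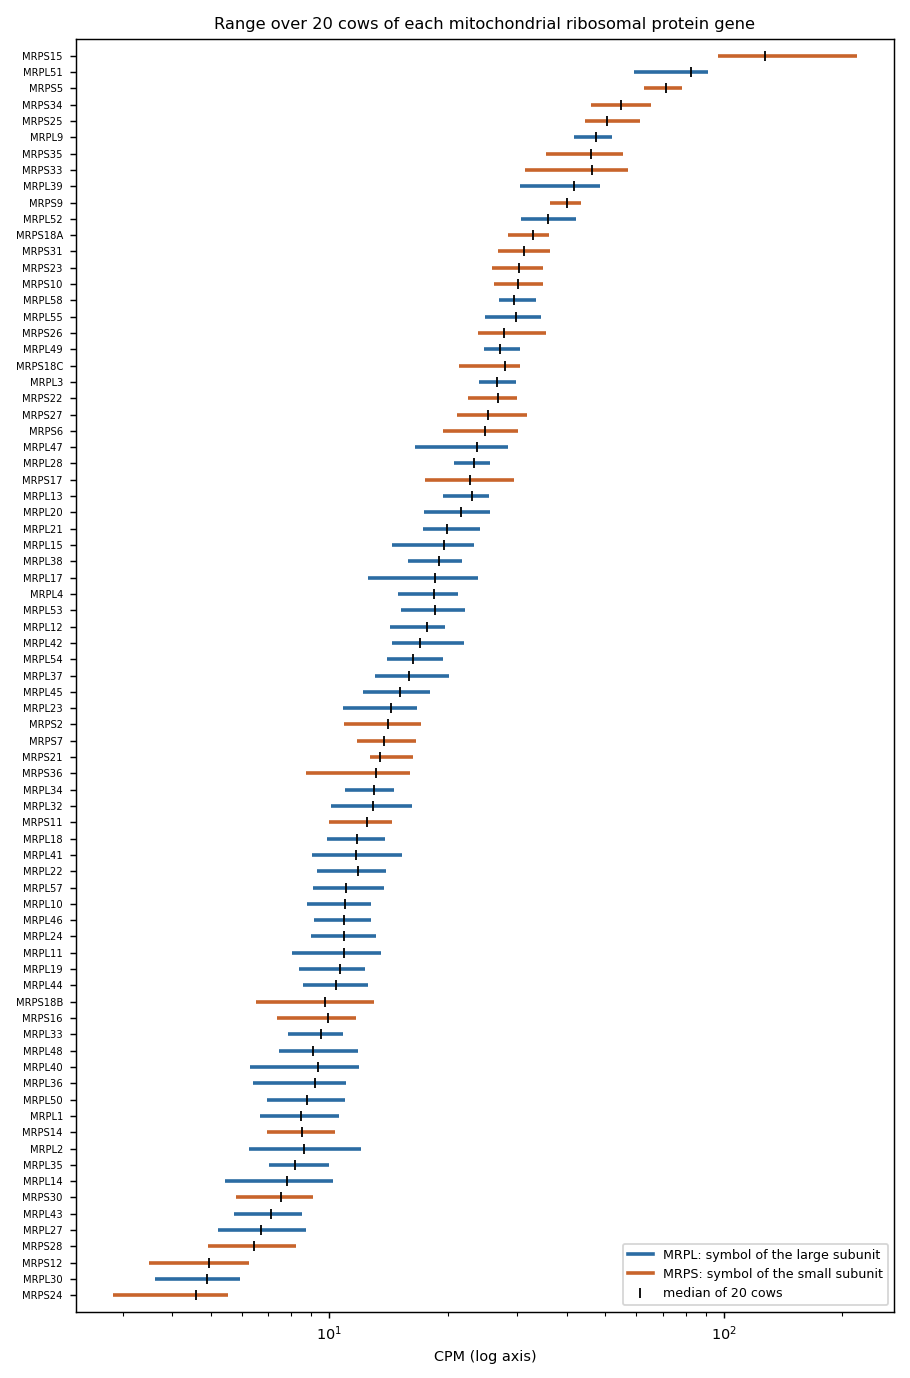
Range of CPM over 20 cows for the 77 mitochondrial ribosomal protein genes that passed the filter (horizontal log axis, 1 line per gene from the lowest to the highest cow, black tick at the median, colour by the subunit in the symbol). MRPS15 stands at the top with 96.6 to 218 CPM, and MRPS24 at the bottom.

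Differences between cows were small for nearly all members. The biological coefficient of variation, edgeR's estimate of the spread between cows beyond counting error, had a median of 11.4% over the members and 15.99% over all genes, and its range was 6.61% to 21.8%. For 76 of the 77 members (98.7%) it lay below the value that edgeR fits to genes of the same level, beside 77.1% of all genes. The exception was MRPS15, with 21.8% against a fitted 13.3%. The next largest were those of MRPS24 (18.1%) and MRPS18B (17.3%), both below the values fitted at their level (31.2% and 22.8%). MRPL53 had 10.5%, against a fitted 17.9%.

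The relation of each member to calf BW was then measured as the log2 fold change per kg. With edgeR's quasi-likelihood test, 0 of the 77 members had an FDR below 0.05, where 0% of the 16206 genes tested did, and the smallest FDR among the members was 0.121. At an unadjusted p below 0.05, 15 members (19.5%) were lower in cows of heavier calves, where the background over all genes was 7.08%, and 2 members (2.60%), MRPS6 and MRPS36, were higher, where it was 6.78%. The slope was negative for 57 of the 77 members (74.0%) and for 53.4% of all genes. Its median was -0.0038 per kg over the members and -0.0007 per kg over all genes, so that the median member changed by -2.58% per 10 kg. These counts describe genes that vary together in the same cows, and the members are not replicates. For 60 of the 77 members the 95% interval of the slope included 0.

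With DESeq2's Wald test, the method of the study, 1 member, MRPS15, had an FDR below 0.05, where 1.22% of 15478 genes did. That test gave a negative slope for 53 of the members (background 51.5%). In it 14 members had an unadjusted p below 0.05 with a negative slope (background 6.94%) and 3 with a positive slope (background 7.8%). With all 20 cows, edgeR gave 0 members with an FDR below 0.05 (background 0.0246%), 61 with a negative slope (background 50.8%), 13 of them at an unadjusted p below 0.05 (background 6.41%) and 3 with a positive slope at that p (background 6.96%). Leaving out 1 cow, edgeR's 15 lower members became 9 without the recipient of the 55 kg calf, and its 2 higher members became 4 without that of the 37 kg calf. The shares over all genes are not given for these fits. Without the recipient of the 55 kg calf the median slope over all genes also moved, to -0.00018 per kg.

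**Figure D2:**
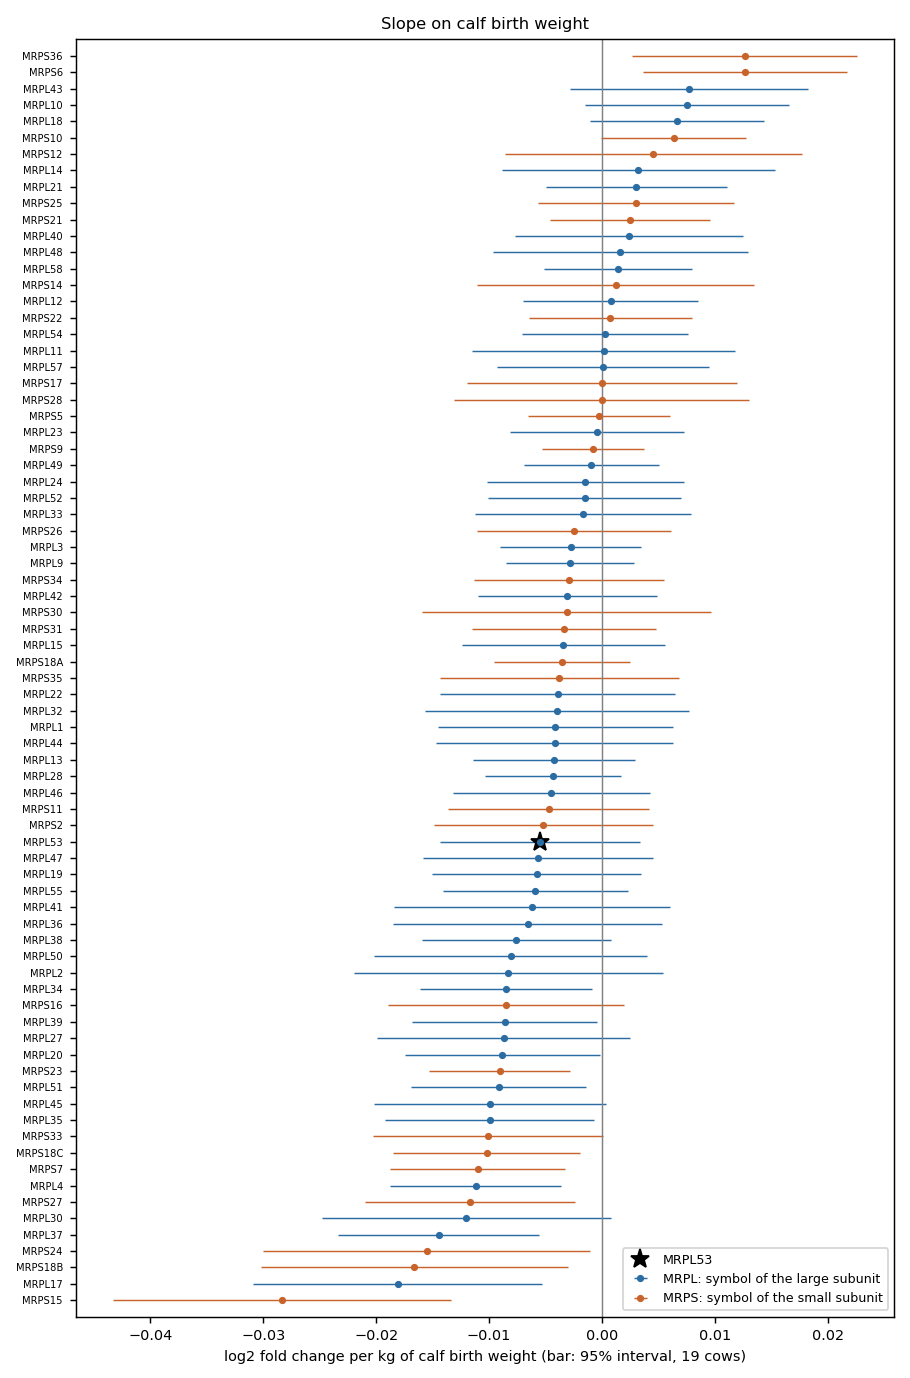
Slope on calf BW of the 77 members in 19 cows (horizontal axis, log2 fold change per kg, point with 95% interval from edgeR, colour by the subunit in the symbol, star for MRPL53). MRPS15 has the lowest slope, -0.028, MRPS36 and MRPS6 have the highest, 0.013, and 57 of the 77 points lie left of 0.

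Negative slopes were the more frequent among both MRPL and MRPS symbols, which do not always match the subunit. Of the 48 MRPL genes, 36 had a negative slope and 12 a positive one, with 8 negative and 0 positive at an unadjusted p below 0.05. Of the 29 MRPS genes, 21 were negative and 8 positive, with 7 and 2 at that threshold. The negative slopes made up 75.0% of the MRPL genes and 72.4% of the MRPS genes, beside 53.4% of all genes. At that threshold 7.08% of all genes were negative and 6.78% positive. Taken by number alone, the 43 members with a bacterial relative (MRPL up to 36 and MRPS up to 21) had 32 negative slopes, and the other 34 had 25. This split places MRPL47 and MRPS24 among the latter, although both also have a bacterial relative. The difference between the classes was not tested.

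MRPS15 had the steepest slope of the family. Its level was 96.6 CPM in the lowest cow, 127 CPM at the median and 218 CPM in the highest. The highest value belonged to the recipient of the lightest calf (30 kg) and the next, 197 CPM, to that of the 43 kg calf, and no cow with a calf of 45 kg or more exceeded 148 CPM. The slope was -0.028 per kg (standard error 0.0072), or -17.8% per 10 kg with a 95% interval from -25.9% to -8.83%, with an unadjusted p of 0.00078 and an FDR of 0.121 with edgeR. With DESeq2 the FDR was 0.0228. Leaving out 1 cow at a time, DESeq2 kept it below 0.05 in 17 of 19 fits, but not without the recipient of the 30 kg calf (FDR of 0.104) or the recipient of the 56 kg calf (FDR of 0.0764). Without the recipient of the 30 kg calf edgeR's slope was -0.024, and with the recipient of the 72.5 kg calf added it was -0.017. Across the 20 cows MRPS15 correlated with the NK cell score at -0.48 and with the B cell score at 0.33. Neither value is given without the recipient of the 30 kg calf, and the part of these cells in the slope of MRPS15 was not tested.

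Other members with low p-values in the negative direction had smaller slopes. MRPL37, a large subunit protein specific to mitochondria, lay at 13.02 CPM in the lowest cow, 15.9 CPM at the median and 20.1 CPM in the highest. Its lowest value was in the recipient of the 55 kg calf and its highest in that of the 41.5 kg calf. The slope was -0.014 per kg (standard error 0.0043), or -9.53% per 10 kg, and the FDR was 0.173 by edgeR's test and 0.0874 by DESeq2's.

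MRPL4, whose bacterial relative lines the tunnel through which the new protein leaves, lay between 14.97 CPM, in the recipient of the 56 kg calf, and 21.2 CPM, in that of the 47.4 kg calf, with a median of 18.5 CPM. It belongs to the list of genes that the study described as changing across gestation. Its slope was -0.011 per kg (FDR of 0.191 with edgeR). MRPS7, a counterpart of a bacterial protein of the small subunit head, and MRPS23, specific to mitochondria, had slopes of -0.011 and -0.0091 per kg (FDR of 0.208 and 0.198 with edgeR). MRPL17, named here after its values were seen, had the second steepest slope, -0.018 per kg, and an edgeR FDR of 0.208. It spanned 12.5 to 23.8 CPM with a median of 18.5 CPM, and its lowest value was in the recipient of the 56 kg calf. None of these 5 genes passed the threshold with edgeR or with DESeq2 in the 19 cows. In DESeq2 fits with 1 cow left out, MRPS7, MRPL17, MRPL37 and MRPS6 each passed it in 1 of the 19 fits, without the recipient of the 55, 50, 37 and 53 kg calf, respectively.

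In the positive direction, MRPS6, the counterpart of a small subunit protein of bacteria, had 19.5 CPM in the lowest cow, 24.8 CPM at the median and 30.0 CPM in the highest. The recipient of the 30 kg calf was lowest and that of the 46 kg calf highest, and among the cows of calves over 45 kg only that of the 53 kg calf lay under 23 CPM. The slope was 0.013 per kg (standard error 0.0043), or 9.15% per 10 kg with a 95% interval from 2.53% to 16.2%, and the FDR was 0.208 by edgeR and 0.127 by DESeq2. MRPS6 correlated with the NK cell score at 0.59 and with the erythroid score at -0.59 over the 20 cows. With the erythroid score as a covariate its slope was 0.0094 per kg (unadjusted p of 0.0303 and FDR of 0.405 with edgeR), and the part of NK cells was not tested. The 9 genes of the erythroid score had a median level of 0.56 CPM, so this score rests partly on genes with few counts.

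MRPS36 lay between 8.73 CPM, in the recipient of the 35 kg calf, and 16.05 CPM, in that of the 49.5 kg calf, with a median of 13.2 CPM. Its slope was 0.013 per kg (standard error 0.0048), and edgeR gave an FDR of 0.248 where DESeq2 gave 0.167. The next members in this direction did not reach an unadjusted p of 0.05 with edgeR. They were MRPS10 (0.0064 per kg, p = 0.0515), MRPL18 (0.0066 per kg, p = 0.0874) and MRPL10 (0.0075 per kg, p = 0.0991). MRPL10 anchors MRPL12 in the stalk where translation factors bind, and MRPL12 itself had a slope of 0.00076 per kg (FDR of 0.954 with edgeR).

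**Figure D3:**
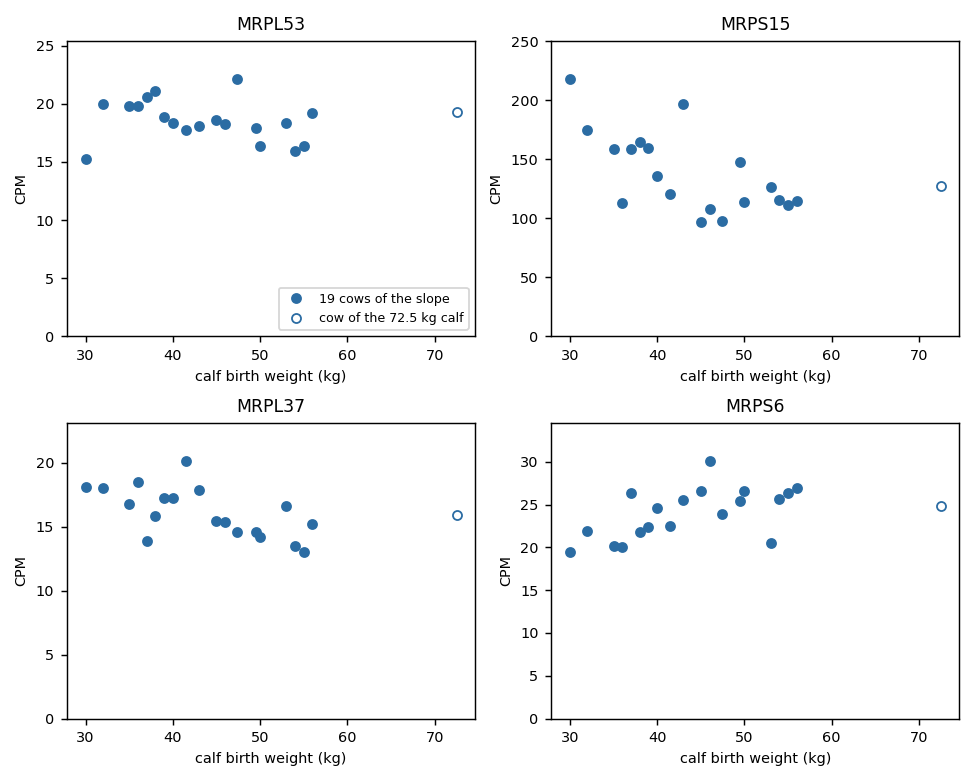
CPM of MRPL53, MRPS15, MRPL37 and MRPS6 (vertical axes from 0) against calf BW in kg, 1 point per cow, with filled points for the 19 recipients of the slope and an open point for the recipient of the 72.5 kg calf. MRPL53 has its lowest value, 15.2 CPM, in the recipient of the lightest calf, whereas MRPS15 has its highest there, 218 CPM.

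The 3 paralogs of bacterial protein S18 differed in level and slope. MRPS18A had 32.9 ± 2.03 CPM, MRPS18B 9.81 ± 1.66 CPM and MRPS18C 27.0 ± 2.72 CPM (SD, n = 20 for each). The slopes of MRPS18B (-0.017 per kg) and MRPS18C (-0.010 per kg) had an unadjusted p of 0.0189 and 0.0184 and an FDR of 0.257 each with edgeR, while MRPS18A had -0.0035 per kg (p = 0.235 in the same test). The difference between paralogs was not tested. Their pairwise correlations across the 20 cows were 0.16 for MRPS18A and MRPS18B, 0.04 for MRPS18A and MRPS18C, and 0.34 for MRPS18B and MRPS18C.

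Of the other members in the study's gestational list, MRPS5 had a slope of -0.00027 per kg, MRPS22, specific to the small mitochondrial subunit, 0.00075 per kg, and MRPS30 -0.0031 per kg, with unadjusted p-values of 0.93, 0.832 and 0.615 with edgeR. MRPS30 lies beside MRPL37 in the large subunit, and the pair correlated at 0.12 across cows.

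MRPL53 (Entrez 505728), a large subunit protein specific to mitochondria, is the member that the study selected among its genes predictive of calf BW. That selection used these cows, so its relation to BW here is not independent evidence. Its level was 15.2 CPM in the lowest cow, 18.5 CPM at the median and 22.1 CPM in the highest, and it ranked 35th of the 77 members by mean CPM. The highest value belonged to the recipient of the 47.4 kg calf, and the next 5 belonged to the recipients of the 38, 37, 32, 35 and 36 kg calves. The lowest belonged to the recipient of the lightest calf, 30 kg, followed by those of the 54, 50 and 55 kg calves at 15.97 to 16.3 CPM.

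The slope of MRPL53 was -0.0055 per kg (standard error 0.0043), or -3.72% per 10 kg with a 95% interval from -9.45% to 2.37%. Its FDR was 0.614 with edgeR and 0.65 with DESeq2, and by p it ranked 32nd in the family. Without the recipient of the 30 kg calf the slope was -0.010 per kg, with an unadjusted p of 0.0164 and an FDR of 0.267 with edgeR. With all 20 cows it was -0.0020 per kg (unadjusted p of 0.544 with edgeR).

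Across the 20 cows log2 CPM of MRPL53 had a Pearson correlation with calf BW of -0.13 (permutation p = 0.575, two-sided), and Spearman's was -0.28 (permutation p = 0.224). Without the recipients of the 72.5 and 30 kg calves, which lay farthest from the median BW, these were -0.57 (permutation p = 0.0137) and -0.58 (permutation p = 0.0126). Without the 72.5 kg calf alone they were -0.26 (permutation p = 0.283) and -0.34 (permutation p = 0.151). Leaving out the 30 kg calf alone gave -0.37 (permutation p = 0.123) and -0.50 (permutation p = 0.0327). The size of the correlation thus depended on whether the recipients of the lightest and the heaviest calf were included. It was the only relation tested by permutation.

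Across cows the family moved together only loosely. These correlations are descriptions over 20 cows of log2 CPM values that share libraries and normalization. Over the 2926 pairs of members the median Pearson correlation was 0.094, beside -0.002 over all pairs of genes tested. It was 0.56 for the 81 cytosolic ribosomal protein genes, 0.23 for the 80 nuclear genes of the respiratory chain and 0.62 for the 13 protein genes of mitochondrial DNA. These lists also differ in level, with medians of 431, 31.6 and 774 CPM in turn, beside 16.1 CPM for the members. The part of level in these correlations was not tested. Among member pairs 6.53% exceeded 0.5 and 1.54% lay below -0.5, beside 3.6% and 3.24% of all pairs. By symbol, pairs of MRPL genes had a median of 0.118, pairs of MRPS genes 0.047 and pairs of an MRPL with an MRPS gene 0.087.

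Within this loose pattern a group of members varied together. Against the mean z-score of the other members, 68 members correlated positively and 9 negatively, and 18 (23.4%) exceeded 0.5, beside 6.23% of the 16192 genes outside the family. The highest values were those of MRPL51 (0.79), MRPL41 (0.79), MRPL44 (0.73), MRPL4 (0.73) and MRPL36 (0.71), all of the large subunit. All 18 had a negative slope on calf BW, which 5 of them showed at an unadjusted p below 0.05 with edgeR. The mean z-score of the 77 members itself correlated with calf BW at -0.52 (Pearson, 19 cows). Genes chosen by a high or low correlation with that mean tend to slope with or against it, so their signs are not separate evidence. The lowest values were those of MRPS36 (-0.37), MRPS10 (-0.37) and MRPS6 (-0.36), the small subunit symbols with the lowest p-values among positive slopes. MRPS6 and MRPS36 correlated with each other at 0.56 and with MRPL51 at -0.37 and -0.47.

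MRPS15 stood mostly apart, at 0.12 with the mean of the other members, so the gene with the steepest slope was not among those that moved with the family. Single pairs, named after their values were seen, ran from 0.86 for MRPL41 and MRPS34 to -0.78 for MRPL50 and MRPL10. MRPL10 and its partner MRPL12 had 0.33.

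**Figure D4:**
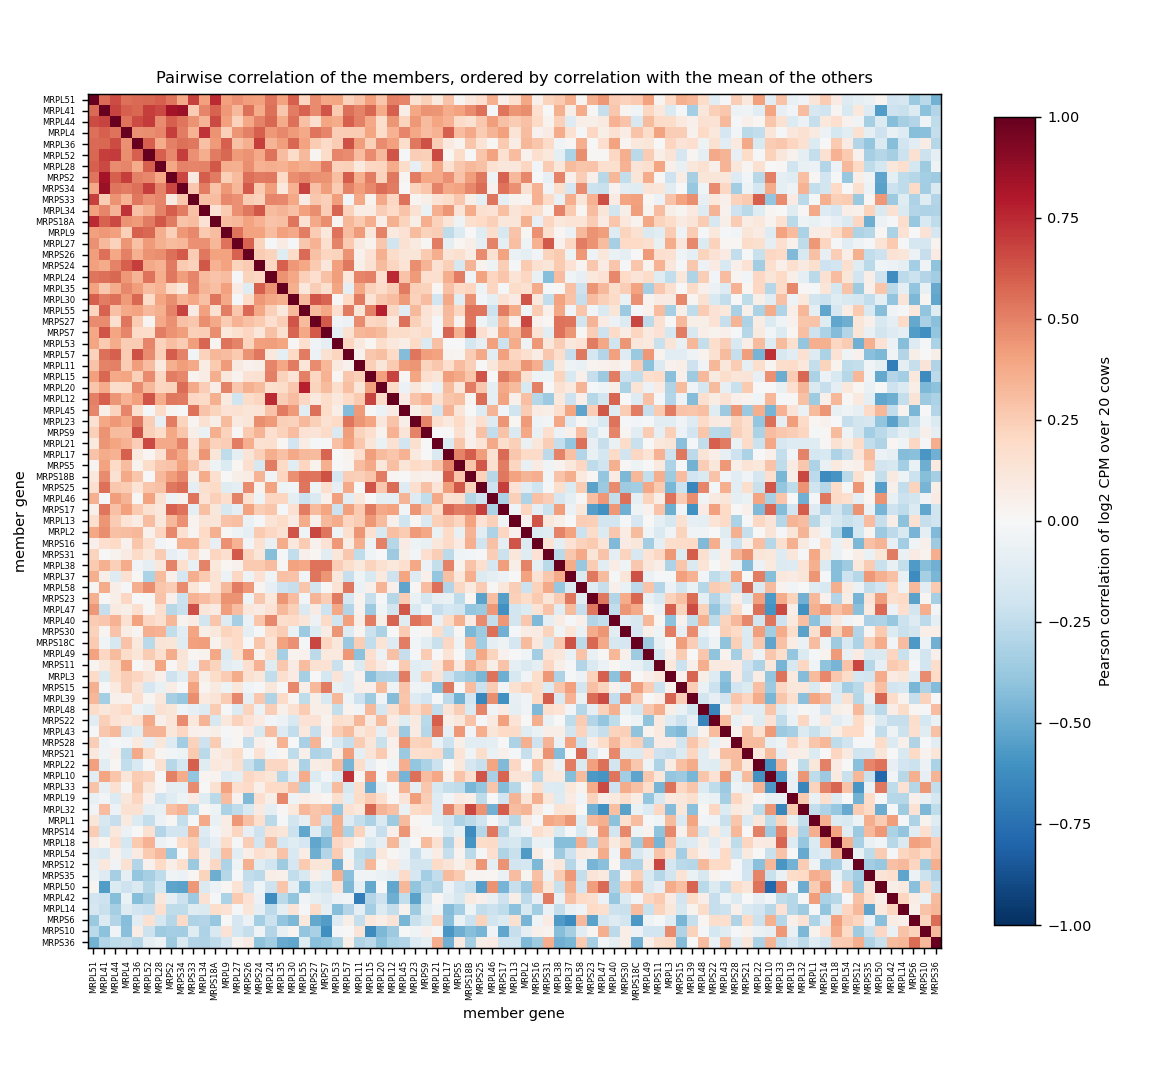
Pairwise Pearson correlation of log2 CPM over 20 cows for the 77 members (colour scale from -1 to 1), ordered by correlation with the mean of the others. A block of positive correlations led by MRPL51 and MRPL41 fills the upper left corner, and MRPS6, MRPS10 and MRPS36 at the lower right correlate negatively with it.

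Within its family MRPL53 took an intermediate place. Its correlation with the mean of the other members was 0.46, rank 23 of 77, and it lay between 0.33 and 0.61 with 1 cow left out, the highest without the recipient of the 30 kg calf. Among members it was most like MRPL34 (0.58), MRPL9 (0.54), MRPS23 (0.52), MRPL27 (0.50) and MRPL52 (0.48) and least like MRPS12 (-0.48). The family makes up only 77 of the 16269 genes that passed the filter. The 5 of these genes most like MRPL53, by Pearson correlation of log2 CPM over 20 cows, lay outside the family. They were RPL22 (0.80), RPL26 (0.76) and RPL21 (0.76), which encode cytosolic ribosomal proteins, ATP5PD (0.80), a subunit of the ATP synthase, and ECT2 (0.79), a regulator of cell division.

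MRPL53 correlated with the score of the mitochondrial translation factors at 0.59 and with the B cell score at -0.44. Without the recipient of the 30 kg calf these values were 0.68 and -0.31. It correlated with the cytosolic ribosomal score at 0.56, with the T cell score at 0.56 and with the score of mitochondrial DNA genes at 0.56, the last being 0.32 without the recipient of the 30 kg calf. With the cytosolic ribosomal score as a covariate, an alternative chosen after seeing the data, the slope of MRPL53 on calf BW was -0.0021 per kg (unadjusted p of 0.602 with edgeR). With the T cell score it was -0.0054 per kg (unadjusted p of 0.159 with edgeR).

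The mean z-score of the 77 members summarised the family in each cow. It was -0.62 in the lowest cow, 0.04 at the median and 0.58 in the highest. It was positive in 9 of the 10 cows with the lightest calves and in 2 of the other 10. The recipient of the 47.4 kg calf was highest and held the maximum of 19 members, and it also had the highest T cell score (2.27) and cytosolic ribosomal score (1.57). The recipient of the 50 kg calf was lowest and held the minimum of 15 members, and it also had the highest neutrophil score (1.33) and the lowest scores of translation factors (-1.24) and of the mitoribosomal proteins with other symbols (-1.52). Across cows the score correlated with calf BW at -0.56 (Pearson) and -0.60 (Spearman) with 20 cows, at -0.52 and -0.55 with 19, and at -0.52 (Pearson) without the 2 cows farthest from the median BW. Its correlation with the total count was -0.09. The relation to calf BW was not particular to the family. Pearson correlations with 20 and 19 cows were -0.54 and -0.62 for mitochondrial tRNA synthetases and -0.60 and -0.48 for mitoribosomal proteins with other symbols. They were -0.36 and -0.49 for translation factors and -0.25 and -0.34 for assembly factors. The list of tRNA synthetases also holds QRSL1, GATB and GATC, which are not synthetases. Nuclear respiratory chain genes had -0.46 and -0.36, cytosolic ribosomal genes -0.34 and -0.25, and mitochondrial DNA genes 0.26 and 0.18.

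**Figure D5:**
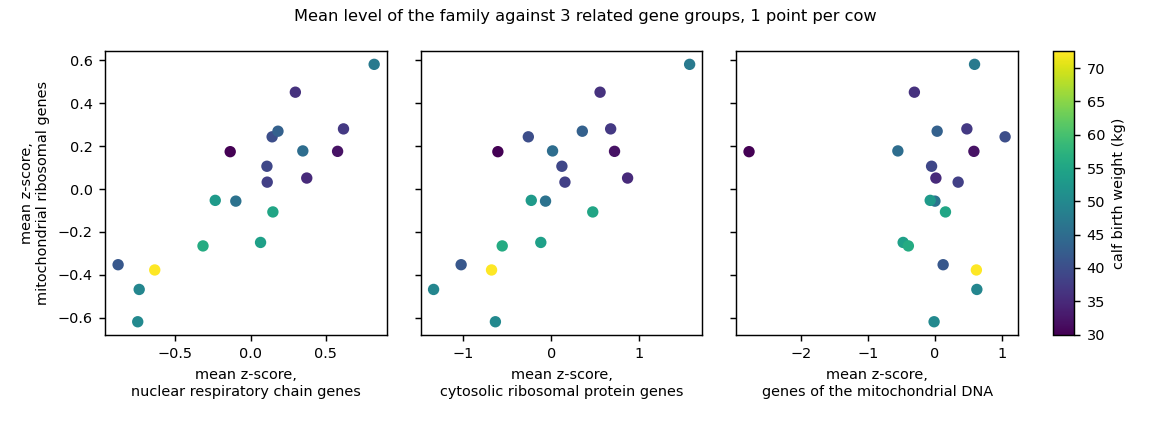
Mean z-score of the 77 members (vertical axis) against that of the nuclear respiratory chain genes, the cytosolic ribosomal protein genes and the protein genes of mitochondrial DNA (horizontal axes), 1 point per cow, coloured by calf BW in kg. The points rise together in the first panels (correlations of 0.87 and 0.77), and in the last the correlation is -0.05 with the recipient of the 30 kg calf far to the left at -2.78.

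The family score was closest to the score of the nuclear respiratory chain genes, with a Pearson correlation of 0.87 (Spearman 0.85), and next to that of the cytosolic ribosomal genes, with 0.77 (Spearman 0.73). With the genes of mitochondrial DNA, the products of the mitochondrial ribosome, it was -0.05 (Spearman 0.02), and 0.12 (Pearson) without the recipient of the 30 kg calf. The score of 5 further mitoribosomal proteins whose symbols do not begin with MRP followed at 0.66, mitochondrial tRNA synthetases at 0.50, translation factors at 0.45 and assembly factors at 0.20. The first 2 lists hold 80 and 81 genes, and these last 4 hold 5, 21, 16 and 25. A mean over fewer genes carries more noise, and the assembly factors had a median pair correlation of -0.01 among themselves. The part of list size in this order was not tested. Without the 2 cows farthest from the median of each list's own score, the correlation was 0.83 for the respiratory chain, 0.66 for the cytosolic ribosome, 0.44 for the 5 further proteins, 0.35 for the tRNA synthetases, 0.17 for the translation factors and 0.02 for the assembly factors. Among blood cell scores the correlation was 0.42 for T cells, 0.34 for erythroid cells, 0.33 for monocytes, 0.07 for platelets, -0.03 for NK cells, -0.11 for neutrophils and -0.29 for B cells. Without the 2 farthest cows that for platelets was 0.38 and that for erythroid cells 0.19. The part of cell composition in the family score was not tested beyond the covariates given here. With the neutrophil, T cell and erythroid scores as covariates in turn, the median slope of the members was -0.0038, -0.0038 and -0.0033 per kg, and with the cytosolic ribosomal score it was -0.0025.

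Negative slopes were also the more frequent among other genes of mitochondrial translation, with 0 genes in each list at an FDR below 0.05 with edgeR. Of 16 mitochondrial translation factors, 13 had a negative slope, 5 of them (31.2%, beside 7.08% of all genes) at an unadjusted p below 0.05, and the median slope was -0.0039 per kg. MTRF1, a release factor, had 3.05 to 6.51 CPM and a slope of -0.025 per kg (edgeR's FDR was 0.111, that of DESeq2 0.0325), and MTIF2, an initiation factor, had -0.013 per kg (FDR of 0.215 with edgeR). MTRF1 was the only gene of these other lists called by DESeq2.

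Of 21 genes in the list of mitochondrial tRNA synthetases, 18 had a negative slope. At an unadjusted p below 0.05 there was 1 of them (4.76%), under the background of 7.08% of all genes. LARS2, the leucyl enzyme, had -0.0080 per kg (FDR of 0.375 with edgeR). Of 25 assembly factors 17 were negative, 1 of them (4%, also under that background) at that p. The smallest p-values were those of the RNA helicase DHX30 (-0.0055 per kg) and C1QBP (-0.0048 per kg). The 5 mitoribosomal proteins with other symbols had 4 negative slopes, 1 of them (20% of the list) at that p. The smallest p-values were those of GADD45GIP1 (-0.0070 per kg) and DAP3 (-0.0058 per kg). Over all genes 53.4% of slopes were negative.

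In the lists used for comparison 0 genes had an FDR below 0.05 with either tool. Negative slopes were found for 74 of 81 cytosolic ribosomal genes, with a median of -0.0032 and 6 genes (7.41%, near the background of 7.08%) at an unadjusted p below 0.05 with edgeR. RPL6 (-0.0072 per kg) and RPS7 (-0.0086 per kg) had the smallest p-values. They were found for 65 of 80 nuclear respiratory chain genes, with a median of -0.0036 and 8 genes (10%) at that p. Among these ATP5PO, the subunit that joins the ATP synthase stalk to its head, had -0.012 per kg (FDR of 0.146 with edgeR), and COX7A2, a subunit of cytochrome c oxidase, had 0.014 per kg (FDR of 0.221). Of the 13 protein genes of mitochondrial DNA, 5 were negative and 8 positive, with ND1 at 0.0060 per kg (FDR of 0.344 with edgeR) and ND5 at 0.0050 per kg. Without the recipient of the 30 kg calf, a setting added after seeing the data, 10 of the 13 were negative and 3 positive, ND1 had 0.0026 per kg (FDR of 0.684 with edgeR) and ND5 9.6e-05 per kg, so the direction of this list rests on that library. In the same 18 cows 76 of the 81 cytosolic ribosomal genes were negative, 18 of them at an unadjusted p below 0.05. The shares over all genes in these 18 cows are not given here, so the counts without that recipient have no background. Whether the slopes of the mitochondrial ribosomal genes differ from those of these lists was not tested.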

How the data were processed

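Reads were trimmed by the authors with Trimmomatic, mapped by STAR 2.7.0b to the ARS-UCD1.3 assembly and counted them per gene with featureCounts of Subread 2.0.3, after quality control with FastQC 0.11.9 (versions as in the submitters' processing notes). They deposited raw counts per Entrez identifier for each of the 20 cows, without normalization, 24632077 to 39892111 per cow with a median of 33412740. Symbols came from a RefSeq table of the ARS-UCD2.0 assembly, in which all 37063 identifiers were found, so no coordinates are given.

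Here the 16206 genes that had 10 counts or more in 5 or more of 19 cows were tested for a slope on calf BW with the quasi-likelihood method of edgeR 4.0.16 under R 4.3.3, after TMM scaling, with p-values adjusted by the Benjamini-Hochberg method over all of them. The step was tested on simulated counts. Log2 CPM (prior count of 2) over 20 cows gave correlations and mean z-scores. DESeq2 1.42.0, limma 3.58.1 with voom, other size factors and filters, 20 cows, the rank of BW, library size or neutrophil, T cell or erythroid scores as covariates, and each cow left out in turn were the other settings. The cytosolic ribosomal score as a covariate, DESeq2 with 1 cow left out and the other lists without the 30 kg calf were added after seeing the data. Permutation tests used 100000 resamples. Further tools were pandas 2.3.3, scipy 1.17.1 and numpy 2.4.6 under Python 3.11.15, with matplotlib 3.10.9 for figures.

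The members and gene lists were chosen with earlier results of these data known. Named genes are MRPL53, the members of the study's gestational list, the 5 smallest p-values in each direction, the 3 highest and 3 lowest levels, the 5 highest and 3 lowest correlations with the other members, the 3 largest dispersions, members that failed the filter, the MRPS18 paralogs, MRPS30, MRPS36, MRPL12, the 2 smallest p-values of each other list and the 5 genes most like MRPL53. Genes named only for an overlap, a pair, a likeness among members or a call with 1 cow left out were chosen after their values were seen. QRSL1, GATB and GATC are named only to describe their list. Of the genes that the rule names, 2 are not reported here.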

Additional observations from a re-analysis of the deposited data

How the results depend on the processing

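No paired analysis was possible because all cows form 1 group. With edgeR, 0 members passed an FDR of 0.05 under every normalization, filter, covariate and cow left out. DESeq2 gave 1 member, and 0 to 2 with 1 cow left out. The members lower with heavier calves at an unadjusted p below 0.05 numbered 9 to 16 with 1 cow left out (9 without the recipient of the 55 kg calf) and 10 to 17 under the other alternatives, and those higher numbered 2 to 4 and 2 to 3. Except for the fits with a background above, shares over all genes are not given for these settings. The number of positive slopes was 17 to 24 with 1 cow left out and 16 to 27 otherwise, the most with the cytosolic ribosomal score as a covariate. The median slope of the members stayed between -0.0044 and -0.0025 per kg. The slope of MRPL53 was between -0.010 and -0.0034 per kg with 1 cow left out and between -0.0063 and -0.0020 otherwise. Its correlation with calf BW was -0.57 without the 2 cows farthest from the median BW. The median correlation between members was 0.0745 to 0.102 with 1 cow left out, and that of MRPL53 with the other members was 0.30 once neutrophil and T cell scores were removed. The slopes of 22 members, all of 0.0038 per kg or less in size and 0 of them at an unadjusted p below 0.05 with edgeR, changed sign with 1 cow left out, among them MRPL12 (-0.0017 to 0.0028 per kg), MRPS5, MRPS22 and MRPS30. The cause of the differences between settings was not tested. Levels per length and promoter motifs were not analysed here. The lowest count of a member in a cow was 90, and the part of counting error in the intervals was not tested.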

Other observations

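Among the 55 blood cell markers tested in the same 19 cows there were 0 genes at an FDR below 0.05 with edgeR or DESeq2 and 4 at an unadjusted p below 0.05 with edgeR (NCR1, ITGA2B, IL5RA and HBB), a share of 7.27% beside 13.9% of all genes in either direction. Each gene named below was among the 2 of smallest p in its list. Over all genes 53.4% of slopes were negative. Genes of a list varied together, with median pair correlations from 0.38 (erythroid) to 0.87 (B cell), so sign counts are descriptions. In 19 cows the mean z-scores correlated with calf BW (Pearson) at 0.27 for NK cells, 0.02 for platelets and 0.02 for T cells. The values were -0.11 for neutrophils, -0.17 for B cells, -0.28 for monocytes and -0.32 for erythroid cells. Of the NK cell genes 6 of 6 had a positive slope, but 3 of 6 without the recipient of the 30 kg calf. NCR1, an activating receptor, had the smallest p of them (0.023 per kg, unadjusted p of 0.0134 and FDR of 0.235 with edgeR), followed by KLRK1 (0.013 per kg). Of the platelet genes 7 of 8 were positive, with ITGA2B, an integrin chain of platelets, at 0.021 per kg (FDR of 0.196) and PPBP at 0.015 per kg (unadjusted p of 0.369). IL5RA, the only eosinophil marker that passed the filter, had 0.053 per kg (FDR of 0.216). Negative slopes were found for 7 of 7 B cell genes, with BLK and CD79A at -0.0083 and -0.0071 per kg. Without the recipient of the 30 kg calf 6 of these 7 were negative, and the median slope of the list went from -0.0071 to -0.0022 per kg. Of the monocyte genes 6 of 6 were negative, with CD68 at -0.011 per kg. Of the erythroid genes 7 of 9 were negative, with HBB and ALAS2 at -0.072 and -0.035 per kg. Among 9 neutrophil genes 7 were negative, though MMP25, with the smallest p, had 0.016 per kg and FCGR3A had -0.015 per kg. Among 9 T cell genes 4 were negative, or 7 without the recipient of the 30 kg calf, with CD5 and LCK at -0.0029 and -0.0027 per kg. The part of these cells in the slopes of the mitochondrial ribosomal genes was tested only through the covariates named above.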
